A study of Mus musculus with 26 samples.

Results

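The 7 genes described here encode neuropeptides linked to nerve injury: *Gal* (galanin), *Npy* (neuropeptide Y), *Vip* (vasoactive intestinal peptide), *Nts* (neurotensin), *Adcyap1* (pituitary adenylate cyclase-activating polypeptide, PACAP), *Cck* (cholecystokinin) and *Crh* (corticotropin-releasing hormone). They were taken by name from the 55401 genes of the deposited count tables, and all 7 were present in both tables. The study sequenced RNA from the L4-L6 dorsal root ganglia of mice, which hold the cell bodies of sensory neurons, in 26 libraries of 10 groups. Conditional knockout (cKO) libraries came from mice that were *Ahr* f/f and carried the transgene Thy1-CRE(ERT2/EYFP), in which a Thy1 promoter drives a tamoxifen-inducible Cre against *Ahr*, the gene of the aryl hydrocarbon receptor. Control mice carried floxed *Ahr* without Cre: 2 fl/+ and 1 fl/fl mice in each of the naive and injured groups, 3 fl/fl mice for the cultures, and 1 f/+ and 1 fl/fl mouse in the sham set.

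Naive and injured mice of both genotypes, controls included, received tamoxifen (100 mg/kg daily for 5 days) at 28 weeks of age, and ganglia were taken 5 weeks later, in the injured groups 1 day after a sciatic nerve crush (3 mice per group). A supplemental set held semi-purified neurons of these ganglia 24 h after seeding (3 libraries per genotype) and ganglia collected 1 day after a sham operation, in which both sides of each mouse, operated and other, were sequenced separately (2 mice per genotype). No tamoxifen is stated for the supplemental mice, and no age. Tissue was collected 2 to 4 h after lights on.

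Neuropeptides are made as precursor proteins, cut by convertases in dense-core vesicles and released to act on G protein-coupled receptors. Uninjured sensory neurons make little galanin, neuropeptide Y or vasoactive intestinal peptide, and these peptides are known to rise in sensory neurons whose axons were cut or crushed. Galanin and neuropeptide Y act on receptors that modulate pain signalling in the spinal cord. PACAP and vasoactive intestinal peptide are related peptides that raise cyclic AMP through shared receptors.

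The genes lie on 6 chromosomes of GRCm38, with *Vip* and *Nts* both on chromosome 10. *Gal* spans chr19:3409915-3414544 on the minus strand, *Npy* chr6:49822710-49829507 on the plus strand, *Vip* chr10:5639218-5647617 (plus), *Nts* chr10:102481756-102490486 (minus), *Adcyap1* chr17:93199017-93206537 (plus), *Cck* chr9:121489824-121495694 (minus) and *Crh* chr3:19693401-19695396 (minus). Counts cover the whole span of a gene, exons and introns. None of these spans overlaps another annotated gene, so no counts were shared with a neighbour.

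Promoters of 6 of the 7 genes (all but *Crh*) were in the RefSeq table (GRCm38.p6), and the 250 bases before the start were searched on both strands for letters known from injury-responsive and cyclic AMP-responsive promoters. The 5 letters TGACG, the core of a cyclic AMP response element (CRE), were found in *Vip*, *Adcyap1*, *Nts* and *Cck* and in 17.8% of 32851 promoters. The stretches of 60 bases below hold those matches. Capitals mark TGACG or its complement CGTCA and, in *Nts*, the AP-1 letters TGAGTCA, the complement of TGACTCA.
Vip, chr10:5639111-5639170, plus strand: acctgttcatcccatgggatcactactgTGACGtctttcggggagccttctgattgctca
Adcyap1, chr17:93198898-93198957, plus strand: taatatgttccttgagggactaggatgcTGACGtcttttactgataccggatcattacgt
Nts, chr10:102490574-102490633, minus strand: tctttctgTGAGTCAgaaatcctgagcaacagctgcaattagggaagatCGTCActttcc
Cck, chr9:121495710-121495769, minus strand: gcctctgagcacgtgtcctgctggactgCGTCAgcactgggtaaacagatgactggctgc

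*Vip* and *Adcyap1* share the 7 letters TGACGTC, at -79 to -73 and at -91 to -85 from their starts (a second *Adcyap1* start in the table lies such that the same letters are at -242 to -236), and 2.78% of all promoters hold them. That 7-letter search was chosen after the sequences were seen. The AP-1 letters were present in *Nts* alone among the 6 genes and in 4.46% of all promoters. No promoter of the 6 genes held the full CRE letters TGACGTCA (1.55% of all promoters), the C/EBP-ATF letters TGATGCAA (0.791%), the STAT letters TTCNNNGAA (7.02%) or the REST letters TTCAGCACC (0.301%). The short E-box letters CANNTG were in *Nts* and *Cck* and in 66.2% of all promoters. In *Gal* and *Npy* none of these letters were in the window, which says nothing of the factors that bind there.

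Library totals were 20169388 to 23540375 counts in naive and injured ganglia, 39306414 to 58751270 in sham ganglia and 25299938 to 88180611 in cultured neurons. *Atf3*, a transcription factor of injured neurons, checked the crush label: it ranged from 11.04 to 17.3 CPM (counts scaled to library depth with edgeR's TMM factors) in the naive libraries and from 525.6 to 769.5 CPM after crush. *Ahr* did not check the genotype label: it was 18.9 to 23.9 CPM in naive control and 22.7 to 28.1 CPM in naive cKO libraries, and 44.7 to 56.1 against 44.3 to 56.6 CPM in culture. *Thy1* did separate the genotypes, at 707 to 807 CPM in naive control and 1252 to 1416 CPM in naive cKO libraries, so genotypes below are those of the labels. In 2 libraries the sex-linked transcripts went against the labelled sex, injured control replicate 3 and injured cKO replicate 2. By transcripts all naive, injured control and culture libraries were female, all sham libraries male, and 2 of 3 injured cKO libraries male. All 10 genes of a sensory neuron list were detected in every group. In whole ganglia, such as these, fewer cells of a type and less RNA per cell cannot be told apart.

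Every peptide gene that could be tested was called higher after nerve crush in both genotypes by the main test. The cKO call of *Nts* was lost with sex by transcripts in the model or without the libraries of discordant sex (values below). By edgeR's quasi-likelihood test with Benjamini-Hochberg adjustment over 21261 genes, *Gal*, *Npy*, *Nts*, *Adcyap1* and *Crh* were higher after crush in control (5 of 5) and in cKO ganglia (5 of 5), where 12.9% and 10.7% of all genes were called higher. For each of the 5, the 3 injured and the 3 naive libraries of a genotype did not overlap, which held in the higher direction for 21.1% of all genes in control and 18.5% in cKO. *Crh* passed the filter on low counts through the injured libraries, so its count among the 5 carries no weight of its own. *Vip* and *Cck* stayed under the filter. A list of 6 oligodendrocyte and astrocyte genes was also higher after crush without overlap, at 31.9 to 40.8 against 42.4 to 52.1 CPM in control and 33.7 to 40.2 against 43.6 to 50.4 CPM in cKO libraries. Of its 4 tested genes, *Gfap* (2.03 and 2.44) and *Slc1a2* (0.72 in both), which satellite glia can also express, were called higher in both genotypes, *Aqp4* (-0.20) was called lower when averaged over genotypes, and *Olig2* was at 0 in naive control and both injured groups. The satellite glia list was higher after crush without overlap in control (2230 to 2328 against 2415 to 2652 CPM), where 2 of its 6 genes were called higher (*Glul*, 0.58, and *Kcnj10*, 0.33) and 1 lower (*Fabp7*, -0.35), and overlapped in cKO. The part of these lists in the peptide results was not tested.

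Per gene length, *Adcyap1* was the most abundant of the 7 in naive control ganglia, at 16.4 ± 0.475 FPKM (fragments per kilobase of gene span, introns included, scaled to library depth; SD, n = 3). *Gal* (1.36 ± 0.171 FPKM) and *Nts* (1.25 ± 0.10 FPKM) followed, and their difference was within their SDs. *Crh* (0.106 ± 0.0145 FPKM), *Npy* (0.0803 ± 0.0398 FPKM), *Cck* (0.0642 ± 0.00575 FPKM) and *Vip* (0.00359 ± 0.00312 FPKM) were lower. This order depends on the division by gene span. By mean CPM in naive control, *Nts* (10.5) stood above *Gal* (6.10), and *Npy* (0.524) and *Cck* (0.366) above *Crh* (0.204). After crush in control mice the order was *Adcyap1* (70.4 ± 4.80 FPKM), *Gal* (6.15 ± 1.11 FPKM), *Nts* (2.91 ± 0.229 FPKM), *Npy* (1.13 ± 0.134 FPKM) and *Crh* (0.736 ± 0.151 FPKM), followed by *Cck* and *Vip*.

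**Figure D1:**
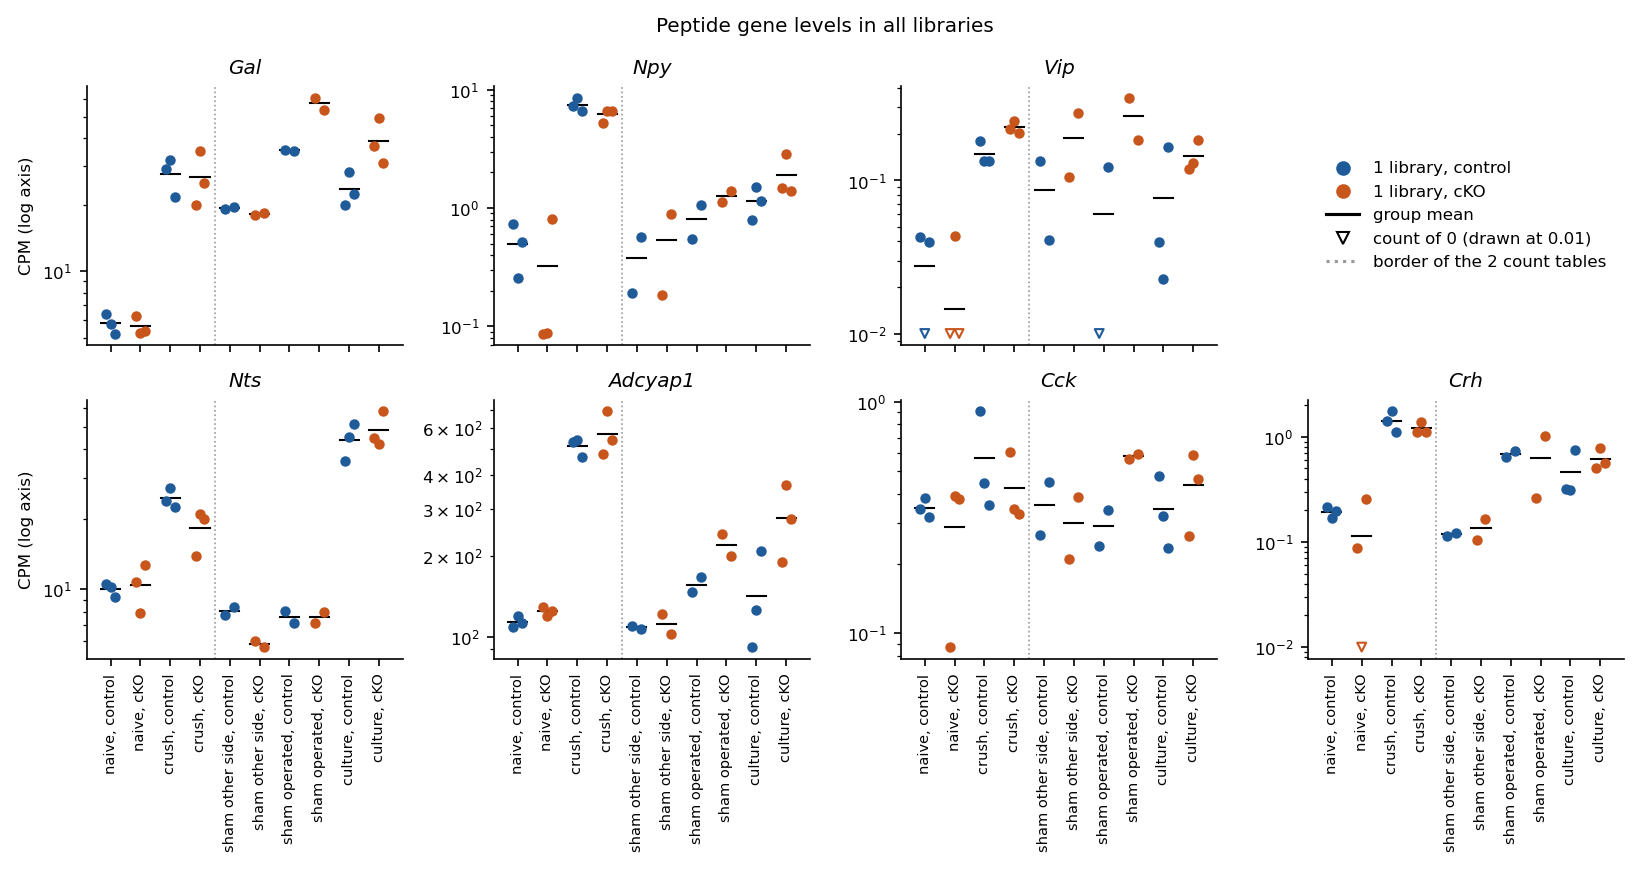
CPM (log axis) of the 7 peptide genes in all 26 libraries, scaled together; each point is 1 library, lines are group means and open triangles are counts of 0. *Gal*, *Npy*, *Nts*, *Adcyap1* and *Crh* lie higher in all crush libraries than in the naive libraries of the same genotype, and *Nts* is highest in culture; the dotted line parts the 2 deposited count tables.

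Galanin inhibits neurotransmitter release and supports the growth of sensory neurons. *Gal* was 6.74, 6.10 and 5.45 CPM in the 3 naive control libraries and 30.6, 33.3 and 23.0 CPM after crush. In cKO ganglia it was 6.69, 5.50 and 5.70 CPM without and 20.9, 36.6 and 26.4 CPM with crush. Every crush library stood well above every naive one. In edgeR the log2 fold change was 2.25 (SE 0.202, adjusted p = 1.67e-05) in control and 2.23 (SE 0.204, adjusted p = 2.54e-05) in cKO mice.

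Neuropeptide Y, a peptide also made by sympathetic neurons, showed the largest fold change of the 5. *Npy* was 0.764, 0.271 and 0.537 CPM in naive control and 7.59, 8.92 and 6.95 CPM in injured control libraries. In cKO libraries it was 0.0929, 0.0916 and 0.852 CPM without and 5.52, 6.94 and 6.95 CPM with crush. Naive cKO replicates 1 and 2 held 2 counts each, so the fitted fold in cKO depends on few counts. Without naive cKO replicate 3, which held 19 counts, the cKO log2 fold change of *Npy* was 6.04. The log2 fold change was 3.88 (SE 0.424, adjusted p = 6.56e-05) in control and 4.19 (SE 0.461, adjusted p = 8.62e-05) in cKO mice by edgeR. A list of 7 sympathetic neuron genes summed to 54.5 to 77.0 CPM over the naive and 54.5 to 62.9 CPM over the injured libraries, so the sum was no higher in the injured libraries, in which *Npy* was higher. Of the transcription factors that define that cell type, *Hand2* was at 0 in naive cKO and both injured groups, whereas *Phox2a* rose by 2.86 (SE 0.308, adjusted p = 2.37e-05 by edgeR, averaged over genotypes), the 1 of 4 tested genes of the list that was called. The part of this in the *Npy* result was not tested.

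PACAP is a trophic peptide of sensory neurons and a potent activator of adenylate cyclase. *Adcyap1* was 114, 127 and 118 CPM in naive control and 558, 562 and 494 CPM in injured control libraries. In cKO libraries it was 138, 126 and 133 CPM without and 503, 720 and 565 CPM with crush. It had the most even response of the 5: the log2 fold change was 2.17 (SE 0.114) in both genotypes, with an adjusted p of 4.41e-07 in control and 5.97e-07 in cKO mice by edgeR.

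Neurotensin acts in sensory pathways on G protein-coupled receptors and on sortilin. *Nts* was 11.1, 10.8 and 9.71 CPM in naive control and 25.3, 28.3 and 23.9 CPM in injured control libraries. In cKO libraries it was 11.4, 8.34 and 13.4 CPM without and 14.5, 22.0 and 21.1 CPM with crush. The lowest injured cKO library, replicate 1, stood close to the highest naive cKO library. Its log2 fold change was 1.29 (SE 0.174, adjusted p = 0.000284) in control and 0.79 (SE 0.175, adjusted p = 0.00765) in cKO mice by edgeR. The cKO call was lost with sex by transcripts in the model (0.39, adjusted p = 0.297) and without the 2 libraries of other sex than labelled (0.68, adjusted p = 0.0542).

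Corticotropin-releasing hormone is best known from the hypothalamus, where it starts the stress hormone axis. *Crh* counts were 4 to 5 in naive control and 0 to 6 in naive cKO libraries, and 25 to 39 and 26 to 28 after crush. As levels these were 0.225, 0.181 and 0.207 CPM in naive control and 1.48, 1.82 and 1.18 CPM in injured control libraries. The fitted log2 fold change was 2.84 (SE 0.419, adjusted p = 0.000553) in control and 3.31 (SE 0.476, adjusted p = 0.000518) in cKO mice by edgeR. One naive cKO library had a *Crh* count of 0, which allows up to 0.137 CPM (3 counts), so the cKO fold in particular rests on few counts. Without naive cKO replicate 3 it was 4.597.

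*Vip* and *Cck* were close to the limit of detection in these ganglia. *Vip* had 0 or 1 count in each naive library and 3 to 5 counts in each injured one, so that the groups did not overlap. Without the filter, edgeR gave *Vip* an adjusted p of 0.0797 in control and 0.00869 in cKO mice, and of 1.00 for the difference between genotypes. *Cck* had 2 to 9 counts in naive and 7 to 20 in injured libraries, and without the filter its adjusted p was 0.398 in control and 0.623 in cKO mice. The unfiltered log2 fold change of *Cck* in control was 0.70 (SE 0.437), and no change was detected.

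**Figure D2:**
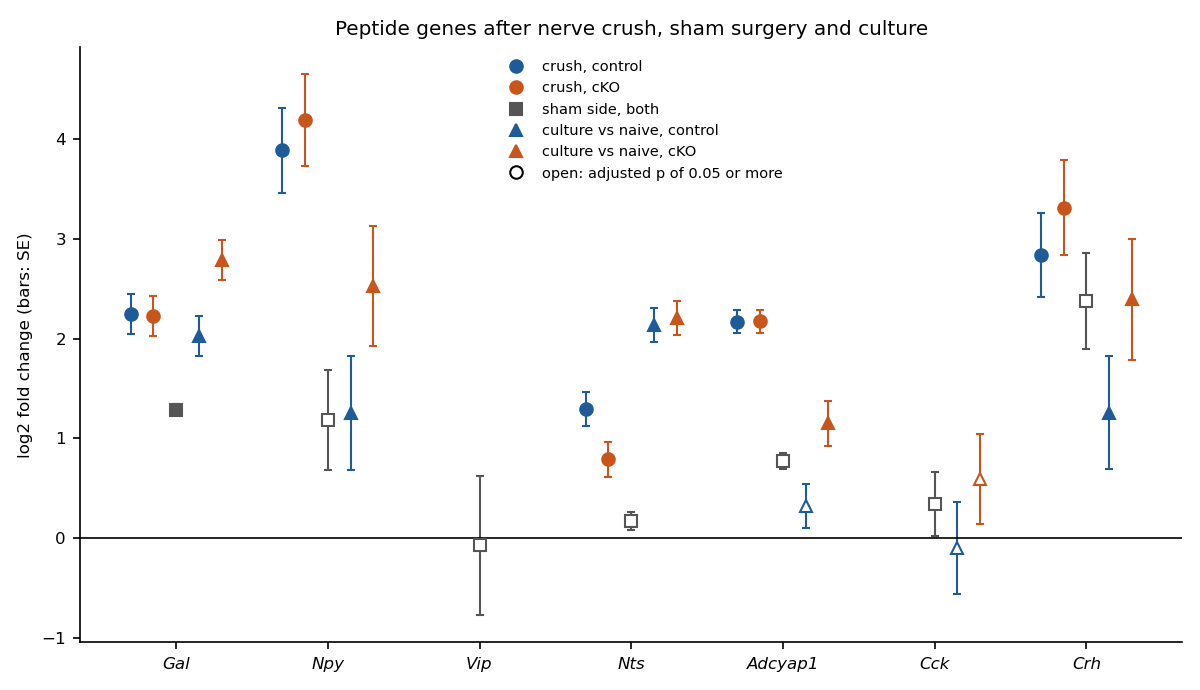
Log2 fold change (bars are SE) of each peptide gene after crush against naive, on the operated against the other side of sham mice, and in cultured neurons against naive ganglia; filled symbols have an adjusted p under 0.05 and genes under the count filter are not drawn. *Npy* and *Crh* show the largest folds after crush, and *Gal* has a filled symbol in each of the 5 comparisons drawn.

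The effect of crush was then compared between genotypes, which asks whether the labelled loss of *Ahr* alters the peptide response. The interaction was called for 0 of 5 tested peptide genes and 0% of all genes by edgeR, with 0 of the 5 at an unadjusted p under 0.05 (2.95% of all genes) and 0 by DESeq2. *Nts* came nearest, with a crush effect smaller in cKO by 0.50 on the log2 scale (interaction -0.50, SE 0.246, adjusted p = 1.00). Between injured cKO and injured control ganglia, 0 of 5 were called by edgeR (0.00941% of all genes) and 0 by DESeq2, with 1 of 5 at an unadjusted p under 0.05 (2.72% of all genes). That gene was *Nts*, at -0.43 (SE 0.168, adjusted p = 1.00). *Nts* and *Npy* were lower in all 3 injured cKO than in all 3 injured control libraries, a pattern that 4.56% of all genes showed in that direction. *Vip*, untested under the filter, went the other way, with 5 counts in each injured cKO and 3 to 4 in each injured control library. For *Nts* the highest cKO library was at 22.0 and the lowest control library at 23.9 CPM. For *Npy* these were 6.945 and 6.947 CPM, equal within counting error. The sympathetic list was also lower in each injured cKO (54.5 to 56.8 CPM) than in each injured control library (56.9 to 62.9 CPM), with 0 of its 4 tested genes called, and its part in the *Npy* values was not tested. Sex by transcripts differed between these groups, with 2 of 3 injured cKO libraries male and all injured control libraries female. Between naive cKO and naive control ganglia, 0 of 5 were called by edgeR (0.00941% of all genes), 0 by DESeq2, and 0 of 5 had an unadjusted p under 0.05 (5.79% of all genes).

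The sham mice allowed the 2 sides of 1 animal to be compared 1 day after surgery without a labelled crush. *Gal* was higher on the operated side in 4 of 4 mice and was the 1 gene of 22160 called by edgeR (0.00451% of all genes). *Atf3* was not at rest there: it was 42.3 to 180 CPM on the operated side and 10.2 to 12.2 CPM on the other side. It varied between mice, with ratios of 10.6 and 7.18 in control and 3.45 and 17.7 in cKO mice 1 and 2.

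*Gal* rose in control mouse 1 from 17.7 to 33.1 CPM and in control mouse 2 from 17.9 to 32.2 CPM. In cKO mouse 1 it rose from 16.5 to 57.7 CPM and in cKO mouse 2 from 16.9 to 50.9 CPM. Other-side values were close to each other, from 16.5 to 17.9 CPM, whereas operated-side values split by genotype without overlap. The log2 fold change averaged over genotypes was 1.29 (SE 0.0582, adjusted p = 0.000659) by edgeR and 1.29 with an adjusted p of 0.0126 with the mouse as a block. With 2 mice per genotype the call rested on each control mouse, and the adjusted p was 0.202 without control mouse 1 and 0.198 without control mouse 2, at log2 fold changes of 1.27 and 1.29.

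*Adcyap1* was also higher on the operated side in 4 of 4 mice. It went from 102 to 137 CPM and from 97.9 to 153 CPM in control mice 1 and 2, and from 111 to 229 CPM and from 94.8 to 189 CPM in cKO mice 1 and 2. The lowest operated-side library stood above the highest other-side one. The log2 fold change was 0.78 (SE 0.0807) with an adjusted p of 0.108 by edgeR, ranked 3 of 22160 genes by p. With the mouse as a block the adjusted p was 0.0339, and without cKO mouse 1 it was 0.0395, both past the threshold.

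*Crh* had 4 to 6 counts in each other-side library and 35, 30, 12 and 44 counts on the operated side of control mice 1 and 2 and cKO mice 1 and 2. Its log2 fold change was 2.38 (SE 0.48, adjusted p = 0.287 by edgeR), and the sides did not overlap. It reached the filter level of 0.212 CPM in the 4 operated-side libraries and in no other-side library, so its lack of overlap carries no weight. *Gal*, *Adcyap1* and *Crh* were the 3 of 7 without overlap, beside 2.93% of all genes higher without overlap. DESeq2 called these same 3 genes, among 200 genes in all.

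Summed marker lists differed between the sides too, although none of their genes was called. The oligodendrocyte and astrocyte list summed to 16.5 to 17.1 CPM on the other and 18.6 to 25.6 CPM on the operated side in control, and to 14.9 to 15.6 and 15.9 to 21.2 CPM in cKO mice (*Olig2* at 0 on the operated side). In cKO mice the sensory neuron list summed to 14711 to 15010 and 13195 to 13358 CPM, and the Schwann cell list to 3782 to 4830 and 2863 to 3284 CPM. In control mice these were 13510 to 14037 and 14131 to 14404 CPM, and 3049 to 4047 and 2774 to 3874 CPM. The satellite glia list was higher on the operated side in control (2170 to 2397 and 2411 to 2503 CPM) and overlapped in cKO mice, and the macrophage list was higher in cKO (129 to 136 and 146 to 158 CPM) and overlapped in control mice. Their part in the peptide results was not tested.

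*Npy* was higher on the operated side in each mouse, at ratios of 2.91, 1.88, 6.36 and 1.62, but its other-side values ranged from 0.169 to 0.817 CPM and the sides overlapped (log2 fold change 1.19, SE 0.502, adjusted p = 0.658 by edgeR). Without cKO mouse 2 the log2 fold change was 1.86 (adjusted p = 0.608). *Nts* was 5.21 to 7.68 CPM on the other and 6.53 to 7.58 CPM on the operated side (0.18, SE 0.090, adjusted p = 0.742 by edgeR). *Cck* (8 to 22 counts on the other and 13 to 26 on the operated side) and *Vip* (2 to 10 and 0 to 16 counts) overlapped between sides. The *Vip* count of 0 in control mouse 1 allows up to 0.0513 CPM.

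**Figure D3:**
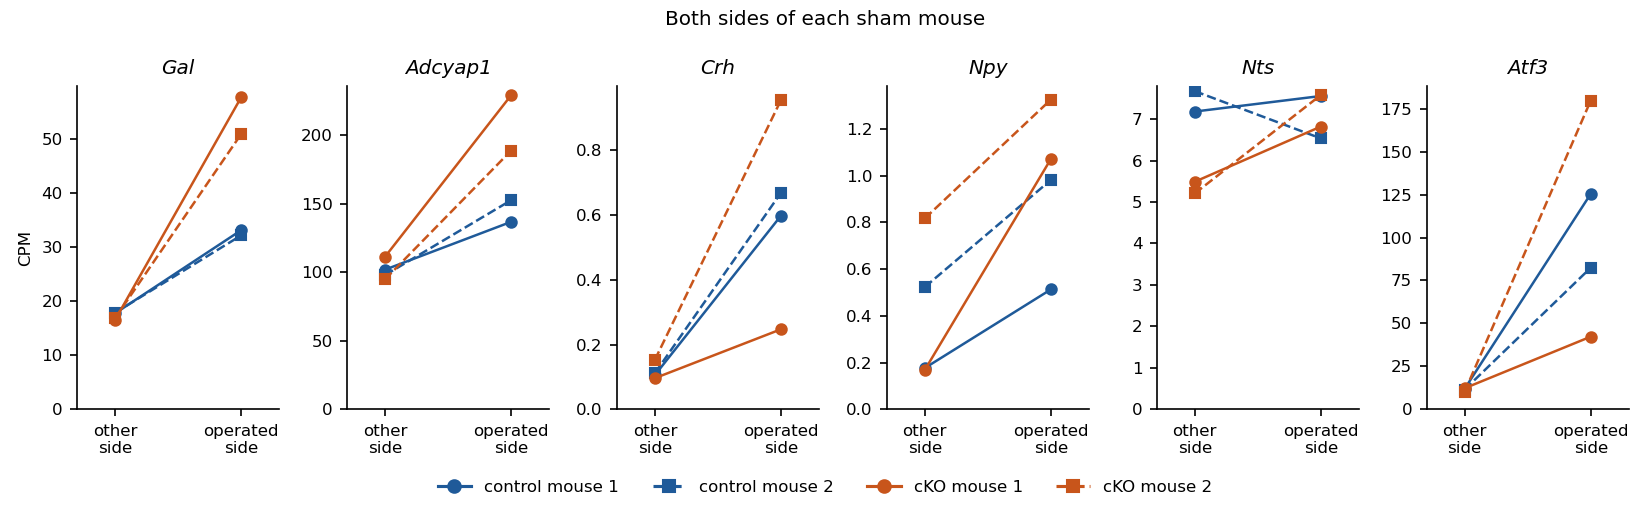
CPM of 5 peptide genes and *Atf3* on the other and the operated side of the 4 sham mice, 1 line per mouse (blue control, orange cKO; axes start at 0). *Gal* and *Adcyap1* rise in every mouse and end higher in both cKO mice, while *Atf3* and *Crh* are lowest on the operated side of cKO mouse 1.

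The side difference of *Gal* was larger in cKO mice by 0.83 on the log2 scale (SE 0.115), the smallest p of 22160 genes, but its adjusted p was 1.00 by edgeR (0% of all genes called; 3 of 7 peptide genes and 4.08% of all genes at an unadjusted p under 0.05). DESeq2 called *Gal* (0.82, adjusted p = 0.00678), 1 of 12 genes it called. The other 2 with an unadjusted p under 0.05 were *Nts* (0.50, SE 0.180) and *Adcyap1* (0.49, SE 0.161), each with an adjusted p of 1.00 by edgeR.

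On the operated side alone, cKO against control, 0 of 7 were called by edgeR (0.00451% of all genes), with 3 of 7 at an unadjusted p under 0.05 (7.59% of all genes) and 2 by DESeq2, which called 153 genes in all. *Gal* differed by 0.73 (SE 0.0806, adjusted p = 0.119 by edgeR and 2.48e-07 by DESeq2) and *Adcyap1* by 0.53 (SE 0.113, adjusted p = 0.498 by edgeR and 0.0027 by DESeq2). Of the 7, 5 (*Gal*, *Npy*, *Vip*, *Adcyap1* and *Cck*) were higher in both cKO than in both control libraries, beside 17.6% of all genes. *Vip* reached the filter level in 1 of the 2 cKO libraries of this side and in no control library, on 0 to 16 counts, so it adds nothing to that count. On this side the summed macrophage list (146 to 158 against 130 to 141 CPM) and fibroblast and meninges list (759 to 819 against 425 to 723 CPM) were also higher in both cKO than in both control libraries, and the sensory neuron list was lower (13195 to 13358 against 14131 to 14404 CPM). None of their genes was called, and their part in the peptide values was not tested. On the other side 0 of 7 were called by edgeR (0% of all genes) and 0 by DESeq2, with 1 of 7 at an unadjusted p under 0.05 (5.24% of all genes). There *Gal* (-0.093, SE 0.0822) and *Nts* (-0.47, SE 0.128, adjusted p = 0.88 by edgeR) were lower in both cKO libraries, as were 19.1% of all genes. There the sums of the macrophage (129 to 136 against 138 to 154 CPM), endothelial (69.0 to 89.7 against 92.3 to 124 CPM) and oligodendrocyte and astrocyte lists (14.9 to 15.6 against 16.5 to 17.1 CPM) were lower in both cKO libraries too, and that of the sensory neuron list higher (14711 to 15010 against 13510 to 14037 CPM), with none of their genes called. Their part was not tested.

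Crush and sham surgery were then set side by side in a model of all 26 libraries, as the crush effect minus the side effect in sham mice. Of the 6 genes tested, 4 had a larger effect of crush by edgeR, where 5.92% of all genes did. These were *Npy* (a difference of 2.89, SE 0.639, adjusted p = 0.00672), *Adcyap1* (1.42, SE 0.249, adjusted p = 0.00101), *Gal* (0.98, SE 0.212, adjusted p = 0.00552) and *Nts* (0.90, SE 0.193, adjusted p = 0.00552). The *Npy* call was lost without sham control mouse 2 (2.67, adjusted p = 0.0548) or sham cKO mouse 2 (2.22, adjusted p = 0.117), and the value was 3.83 without naive cKO replicate 3. For *Crh* the difference was 0.75 (SE 0.67, adjusted p = 0.586), and 1.42 without naive cKO replicate 3. The crush effect is between mice and the sham effect between sides of a mouse, and the mice of the 2 tables differ in sex and stated tamoxifen, so surgery cannot be told apart from these.

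Cultured neurons were compared with naive and with other-side sham ganglia, which asks how peptide genes stand in neurons cut from their axons and kept 24 h in a dish. *Nts* was highest in culture, at 36.4, 44.0 and 51.2 CPM in the control libraries and at 44.5, 41.9 and 57.9 CPM in those of cKO mice (scaled within the 6 culture libraries). Scaled with all libraries, its mean was 43.9 ± 7.86 CPM in control cultures and 48.3 ± 8.56 CPM in those of cKO mice (SD, n = 3), above injured control (24.6 ± 2.34) and naive control ganglia (10.02 ± 0.645). Against naive ganglia the log2 fold change of *Nts* was 2.14 in control and 2.21 in cKO (both SE 0.172, adjusted p = 2.96e-10 and 1.69e-10 by edgeR). *Nts* was the 1 gene of the 7 whose mean in culture was above its mean after crush in both genotypes with no overlap of libraries, a difference that was not tested.

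Of 6 genes tested, 4 were called higher in control culture and 5 in cKO culture than in naive ganglia by edgeR, where 40% and 40.5% of all genes were called higher and 81.4% and 80.1% were called in either direction. The members' count is thus read against a background in which most genes differ, and *Crh* adds no weight to it, since it reached the filter level of this fit (0.31 CPM) in no naive library. Culture and naive libraries also differ in count table and in stated tamoxifen and age, so culture cannot be told apart from these. *Gal* was higher by 2.03 (SE 0.202, adjusted p = 8.83e-09) in control and 2.79 (SE 0.204, adjusted p = 6.09e-11) in cKO culture. *Npy* (1.26, SE 0.572, adjusted p = 0.0493) and *Crh* (1.26, SE 0.566, adjusted p = 0.047) only just passed in control. Each was lost when naive control replicate 2 (0.95 and 1.17) or 3 (1.28 and 1.27) or neuron control replicate 3 (1.3 and 0.68) was left out, *Npy* also without neuron control replicate 2 (1.01), and *Crh* also without naive control replicate 1 (1.34). In cKO culture *Npy* was higher by 2.53 (SE 0.596, adjusted p = 0.000634) and *Crh* by 2.39 (SE 0.606, adjusted p = 0.00121). Without naive cKO replicate 3 these were 4.41 and 3.73. *Cck* was called in neither genotype, and *Vip*, with 1 to 10 counts in control and 10 to 14 counts in cKO cultures, was under the filter.

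The means of *Adcyap1* were lower in culture than after crush, a difference that was not tested. Scaled with all libraries they were 142 ± 60.5 CPM in control and 277 ± 88.2 CPM in cKO culture. After crush they were 511 ± 39.2 CPM in control and 569 ± 109 CPM in cKO ganglia (SD, n = 3). Control cultures held 93.5, 123 and 209 CPM of it and cKO cultures 190, 364 and 273 CPM, against 494 to 720 CPM after crush within its own table. Against naive ganglia it was higher in cKO (1.15, SE 0.224, adjusted p = 8.95e-05) and not called in control (0.32, SE 0.223, adjusted p = 0.189). The control value turned to -0.059 without neuron control replicate 3 and passed without replicate 1 (0.57, adjusted p = 0.0179), the library of lowest depth.

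Against other-side sham ganglia, which share the count table with the cultures, 3 of 6 were called higher in control and 5 of 6 in cKO culture by edgeR (34.1% and 31.9% of all genes). *Crh*, 1 of the calls in each genotype, reached the filter level in no other-side library, so it again adds no weight. By transcripts the cultures were female and the sham libraries male, and the sham mice had surgery, so culture cannot be told apart from these. *Nts* was higher by 2.45 (SE 0.199) in control and 3.05 (SE 0.209) in cKO, *Npy* by 1.66 (SE 0.607) and 1.85 (SE 0.591), and *Crh* by 1.96 (SE 0.607) and 2.17 (SE 0.612). *Gal* was called in cKO (1.10, SE 0.207, adjusted p = 8.63e-05) and not in control (0.29, SE 0.202, adjusted p = 0.209), as was *Adcyap1* (1.31, SE 0.258, adjusted p = 0.000143, against 0.39, SE 0.25, adjusted p = 0.166). Without neuron control replicate 1, *Adcyap1* was also called in control (0.64, adjusted p = 0.0198). In control, *Npy* and *Crh* were lost without sham control mouse 1 (1.08 and 1.92), *Npy* also without neuron control replicate 2 (1.41) and *Crh* also without neuron control replicate 3 (1.38). In cKO, *Npy* was lost without sham cKO mouse 1 (1.11). Its value was 2.64 in control without sham control mouse 2 and 3.36 in cKO without sham cKO mouse 2.

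Cell types differed between culture and ganglia. On the scale of all libraries the 10 genes of the sensory neuron list summed to 10442 to 11997 CPM in naive control ganglia and 5900 to 7130 CPM in control culture. Of these genes, 3 were called higher and 7 lower in culture by edgeR, in control as in cKO. The 6 myelinating Schwann cell genes summed to 3622 to 4789 and 646 to 729 CPM, and the 5 endothelial genes to 110 to 147 and 1023 to 1423 CPM. The fibroblast and meninges list summed to 725 to 1153 and 244 to 456 CPM, and the oligodendrocyte and astrocyte list to 30.5 to 38.5 and 5.64 to 6.98 CPM. These lists were split too, with 1 gene called higher and 5 lower in the former, and 1 higher and 3 lower in the latter. None of the neuron, Schwann cell, endothelial and fibroblast genes was at 0. The sympathetic list summed to 52.2 to 61.2 CPM in naive control ganglia and 158 to 186 CPM in control culture. Its 4 tested genes did not move together: *Th* (1.82) and *Phox2a* (1.97) were higher in control culture, and *Slc6a2* (-2.44) and *Slc18a2* (-0.99) lower. In cKO the satellite glia list summed to 2067 to 2451 CPM in naive ganglia and 1527 to 1859 CPM in culture (1 gene called higher, 4 lower). The macrophage list in cKO summed to 133 to 175 and 177 to 194 CPM (2 called higher, 4 lower). Both lists overlapped in control. The part of these shifts in the peptide results was not tested.

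Between cKO and control cultures 0 of 6 were called by edgeR (0% of all genes), 1 by DESeq2 (*Gal*, among 163 genes in all), and 2 of 6 had an unadjusted p under 0.05 by edgeR (7.997% of all genes). *Gal* was 36.7, 48.7 and 30.6 CPM in cKO and 20.4, 27.6 and 22.2 CPM in control cultures. The groups did not overlap, as was so in the higher direction for 7.54% of all genes. The myelinating Schwann cell list was lower in each cKO (587 to 612 CPM) than in each control culture (632 to 744 CPM), with none of its genes called, and its part was not tested. The log2 fold change of *Gal* was 0.72 (SE 0.178, adjusted p = 0.457 by edgeR and 0.0169 by DESeq2). *Adcyap1* differed by 0.96 (SE 0.313, adjusted p = 0.554 by edgeR), and its groups overlapped. *Npy* differed by 0.68 (SE 0.333, adjusted p = 0.635 by edgeR).

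The unoperated states of the 2 tables did not start at the same level for every gene. Other-side sham ganglia exceeded naive ganglia in *Gal* (1.71, SE 0.154, adjusted p = 2.27e-09) and were lower in *Nts* (-0.58, SE 0.14, adjusted p = 0.00102) by edgeR, 2 of 6 genes tested, where 67.3% of all genes were called. *Adcyap1* differed by -0.11 (SE 0.177, adjusted p = 0.586), and was called only when the fit held the compared groups alone (-0.14, adjusted p = 0.0402). Table, sex, stated tamoxifen and surgery on the opposite side differ together here and cannot be told apart. Marker lists differed as well. The sensory neuron list summed to 10442 to 11997 CPM in naive and 14569 to 16270 CPM in other-side sham ganglia, with 6 of 10 genes called higher. The oligodendrocyte and astrocyte list summed to 30.5 to 38.5 and 16.2 to 18.6 CPM, with 2 of 4 tested genes called lower. The satellite glia list was higher without overlap within each genotype (2128 to 2194 and 2366 to 2585 CPM in control, 2067 to 2451 and 2500 to 2600 CPM in cKO), with 3 of 6 genes called higher and 3 lower. The sympathetic list summed to 52.2 to 72.2 and 120 to 195 CPM, but of its 4 tested genes *Th* alone was called higher (1.74) and *Slc6a2* (-1.10) and *Slc18a2* (-1.66) were called lower, with *Hand2* at 0 in naive cKO and other-side cKO ganglia. The part of these shifts in the peptide results was not tested.

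Ranked over the 10 group means on the scale of all libraries, the members did not share one order. *Gal* was highest in operated-side cKO sham ganglia (57.3 ± 4.95 CPM, SD, n = 2), then in cKO culture (38.8 ± 9.34, n = 3), operated-side control ganglia (35.3 ± 0.274, n = 2), injured control (27.5 ± 5.27), injured cKO (26.7 ± 7.71) and control culture (23.5 ± 4.25, all n = 3). Other-side sham ganglia followed at 19.3 ± 0.247 in control and 18.2 ± 0.177 in cKO (n = 2), and naive ganglia at 5.802 ± 0.606 and 5.63 ± 0.563 (n = 3). Neighbours in that order overlapped between cKO culture and operated-side control ganglia, among injured control, injured cKO and control culture, and between the naive groups, and did not overlap elsewhere. *Npy* and *Adcyap1* were highest in the 2 crush groups, which overlapped each other and not the next group in rank. *Npy* means were 7.43 ± 1.01 and 6.17 ± 0.794 CPM there and 1.92 ± 0.836 CPM in the next group, cKO culture (SD, n = 3). *Adcyap1* means were 569 ± 109 CPM in injured cKO and 511 ± 39.2 CPM in injured control ganglia, and 277 ± 88.2 CPM in cKO culture. *Crh* was also highest in the 2 crush groups. *Cck* and *Vip* neighbours overlapped throughout.

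Across those 10 group means of log2 CPM, *Npy* and *Adcyap1* had a Pearson r of 0.95, *Npy* and *Crh* 0.94, and *Gal* and *Nts* 0.22. The means share libraries and tables, so these are descriptions. Among 14662 genes with a mean of at least 1 CPM, the profile of *Gal* was most like those of *Stac* (r = 0.988), *Dynlt1f* (0.975) and *Ptpn5* (0.943). That of *Npy* was most like *Lmo7*, *Rasl11a* and *Fst* (0.982 to 0.977), that of *Nts* like *Surf4*, *Cln8* and *Zfp623* (0.993 to 0.989), and that of *Adcyap1* like *Slc2a3*, *Fst* and *Rasef* (0.983 to 0.965).

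The receptors of the 7 peptides moved in both directions after crush. Averaged over genotypes, 6 of 15 tested genes of an 18-gene receptor list were called higher and 6 lower by edgeR (18.4% and 15.7% of all genes), and the list's median log2 fold change was -0.15, beside -0.02 over all genes. Within genotypes 5 were called higher and 3 lower in control, and 4 higher and 3 lower in cKO mice. *Cckbr*, the cholecystokinin B receptor, had by far the largest change at 4.70 (SE 0.255, adjusted p = 1.23e-07), from 0.744 to 1.35 CPM in naive control to 21.6 to 37.2 CPM in injured control libraries, although its ligand *Cck* was near the detection limit. Naive and injured libraries of *Cckbr* did not overlap.

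The neuropeptide Y receptors went apart. *Npy1r* (1.08, SE 0.068), *Npy5r* (0.69, SE 0.215) and *Npy2r* (0.45, SE 0.071) rose, and *Npy4r* fell by 1.203 (SE 0.246). *Npy1r* went from 47.1 to 59.6 CPM in naive control to 102 to 130 CPM in injured control libraries. Of the galanin receptors, *Galr2* rose (0.65, SE 0.104) and *Galr1* fell by 0.87 (SE 0.127), from 6.07 to 7.95 CPM in naive control to 3.06 to 4.63 CPM in injured control libraries. The PACAP receptor *Adcyap1r1* fell by 0.62 (SE 0.106) while its ligand rose, and the neurotensin receptors *Ntsr1* and *Ntsr2* fell by 0.65 (SE 0.205) and 0.59 (SE 0.143). The changes of *Cckar* (0.13, SE 0.0414) and of *Sort1*, the sortilin gene (-0.15, SE 0.0522), were called but small.

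**Figure D4:**
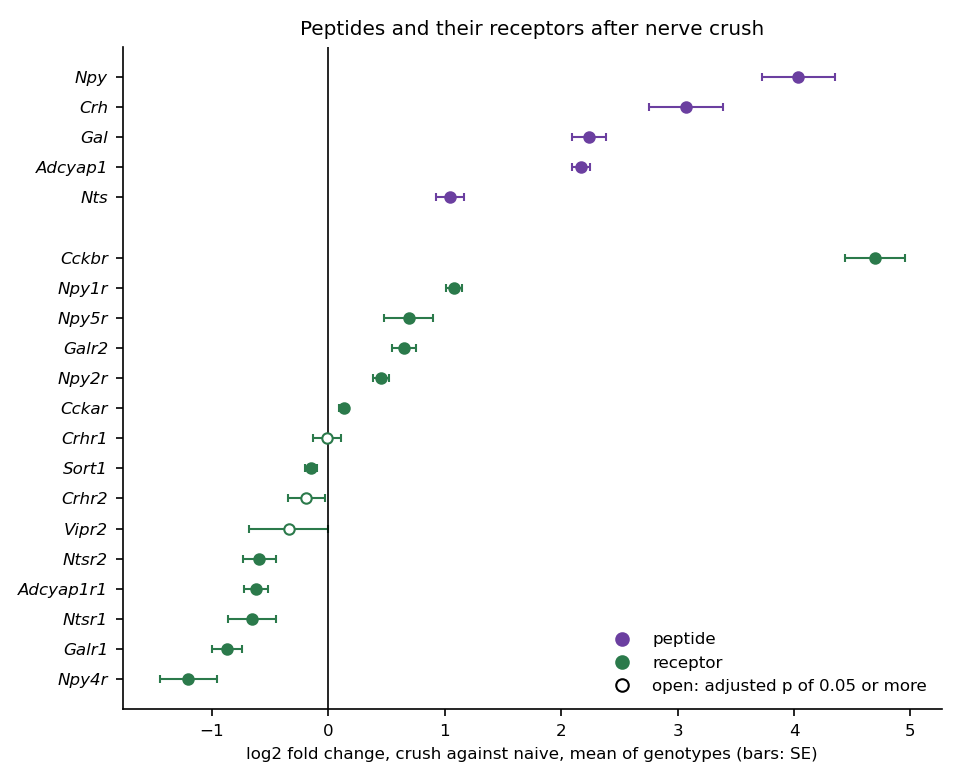
Log2 fold change after crush, averaged over genotypes (bars are SE), of the tested peptide genes (purple) and of the tested genes of the receptor list (green); open circles have an adjusted p of 0.05 or more. *Cckbr* (4.70) stands far to the right of the other receptors, and *Galr1*, *Adcyap1r1*, *Ntsr1* and *Ntsr2* lie below 0 while *Gal*, *Adcyap1* and *Nts* lie above it.

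In a list of 12 genes for peptide processing and storage, 5 were called higher, 1 lower and 6 not (median 0.08), beside the 18.4% and 15.7% of all genes given above. Within genotypes 4 were called higher in control and 2 in cKO mice, and none lower. *Vgf*, a granin-like precursor known to respond to injury, rose by 2.15 (SE 0.093), from 85.0 to 103 CPM in naive control to 421 to 502 CPM in injured control libraries. *Pcsk1*, the convertase PC1/3, rose by 0.81 (SE 0.0826). *Scg3* (0.21), *Scg2* (0.18) and *Pam* (0.14), the amidating enzyme, were called with small changes, and *Chga* fell by 0.25. Counts of a gene that overlaps *Pam* came to 8.3% of those of *Pam*.

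Among 51 other neuropeptide genes, 21 were tested, 6 were called higher and 2 lower, beside the 18.4% and 15.7% of all genes. *Adm2*, *Grp*, *Ucn* and *Ucn2* reached the filter level of 0.458 CPM in injured libraries only. *Pnoc*, 1 of the 2 lower, and *Npb* reached it in naive libraries only, so these counts of called genes support nothing. The 5 with the smallest p were *Adm2*, *Grp*, *Ucn2*, *Ucn* and *Nppb*, and each rose. *Adm2*, the intermedin gene, had 0 or 1 count in each naive and 37 to 129 counts in each injured library. *Ucn* (urocortin, a relative of *Crh*) had 0 to 4 and 10 to 37 counts, *Ucn2* 0 or 1 and 4 to 15 counts, and *Grp* 0 to 2 and 12 to 30 counts. A gene that overlaps *Grp* held 110% of its counts, so *Grp* is uncertain. *Nppb*, a peptide of itch neurons, rose by 0.71 (SE 0.118).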

How the data were processed

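The deposited counts are whole numbers per gene in 2 tables (12 naive and injured, 14 supplemental libraries), and the deposited FPKM divides them by gene span, introns included (within 0.1% of the GENCODE M21 span for 100% of 39651 genes). Per the labels' protocols, RNA was taken with an RNeasy kit and libraries by TruSeq Stranded mRNA. Trim Galore, HISAT2, featureCounts and mm10 are named in the submitters' processing notes, without settings. Symbols were matched for 55141 of 55401 identifiers (99.53%). Members and lists were chosen with earlier results of these data known.

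The main test was edgeR 4.0.16 quasi-likelihood (R 4.3.3; TMM, filterByExpr with minimum count 10 and minimum total 15, Benjamini-Hochberg over all genes of a fit, threshold 0.05, two-sided). Fits used the 12 naive and injured, 6 culture or 8 sham libraries, or all 26 for comparisons across sets, with 1 mean per group. SE is the fold change over the root of F. Log2 CPM for profiles used a prior count of 2. Crush comparisons share naive or injured libraries with the genotype comparisons. The same naive libraries serve the crush and culture comparisons, and the same other-side libraries the sham and culture comparisons, so these are not independent. The labels do not say how mice were bred or batched, so p-values measure the spread between these samples. Replicate pairs differed by more than counting noise (chi-square per degree of freedom 3.14 to 36.3).

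In simulated data the test recovered 80% of log2 changes of 1 and 99% of changes of 2 for crush in control (21261 genes), 80% and 98% for the sham side (22160 genes), 67% and 87% for control culture against naive (24101 genes), and 76% and 94% between cultures (23295 genes). The labels pair both sides of a sham mouse by animal, and deviations of the pairs correlated at 0.229 in control and -0.159 in cKO mice. Counts of 0 allow up to 3 counts, counting error only. Named were the 7 genes in every comparison, called genes of the receptor and processing lists, and the 5 smallest p-values among other neuropeptides after crush. Alternatives were DESeq2 1.42.0, RLE factors, no filter, at least 10 counts in every library, limma 3.58.1 on log2(FPKM + 0.1), leaving out each replicate, blocks by mouse or number, sex terms, leaving out the 2 libraries of discordant sex, and smaller fits. One gene of a marker list is not reported here.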

Additional observations from a re-analysis of the deposited data

Results flagged for a closer look

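*Crh* had a lower ratio between sides in 1 of the 4 sham mice than in the others. Its log2 ratio of operated to other side was 1.36 in cKO mouse 1 and 2.50, 2.58 and 2.64 in the others, a gap beyond Dixon's 95% limit for 4 values, which chance passes in about 1 in 20 groups. The other peptide genes and *Atf3* were screened in the same way, and the ratio in cKO mouse 1 rests on 12 against 4 counts. The same mouse had the lowest *Atf3* ratio (3.45) and the highest *Gal* ratio (3.49) of the 4.

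The side ratio of *Cck* went down in both control and up in both cKO sham mice, a genotype difference of 1.34 in mean log2 ratio. The edgeR interaction was 1.31 (SE 0.639, adjusted p = 1.00), on 8 to 26 counts per library.

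*Gal* was higher in cKO than in control libraries on the operated sham side (0.73) and in culture (0.72), and lower on the other sham side (-0.093), each without overlap. The difference between the 2 sham sides is the interaction given above. That between culture and the other sham side was not tested.

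*Npy* was higher in cKO on the operated sham side (0.69) and lower in cKO after crush (-0.27). The crush libraries were apart by 6.945 against 6.947 CPM when scaled within their table, and overlapped when all libraries were scaled together. This difference was not tested.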

How the results depend on the processing

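After crush, *Gal*, *Npy*, *Adcyap1* and *Crh* kept their call in each genotype under every alternative that tested them; *Nts* lost it in cKO only in the ways given above. With at least 10 counts in every library, *Npy* and *Crh* were not tested and the calls were 3 in control, 3 in cKO and 3 averaged; for the same reason culture against naive fell to 2 in control and 3 in cKO, and culture against other-side sham to 1 and 3. DESeq2 called 1 peptide gene between cultures by genotype, 3 by sham side, 1 in the side interaction and 2 between operated sides by genotype; without a filter edgeR called 0, 3, 1 and 2. limma on FPKM called 2 for control culture against naive. With the mouse as a replicate block, 2 were called by sham side. Leaving out 1 replicate gave 0 to 2 calls by sham side, 2 to 5 for control culture against naive and 1 to 4 against other-side sham; *Adcyap1* in control culture against naive ranged from -0.059 (without neuron control replicate 3) to 0.57. A lone sample left in a group was assumed to vary like the other groups. Replicate numbers did not pair the mice of the first table (same-number r -0.418 to 0.412) or the cultures (0.064 to 0.221); a replicate block on them ended 1 call, *Crh* in control culture against naive (1.21, adjusted p = 0.054), and left *Gal* between cultures uncalled (0.71, adjusted p = 0.111). The mouse block ended no call; with the cKO pairs crossed, an alternative chosen after seeing the data because their deviations correlated at -0.159, it gave 1 call by sham side and 0 in the interaction. Counts were low for *Vip*, *Cck* and, in naive ganglia, *Crh*.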

Other observations

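Some peptide genes with counts near 0 in naive ganglia had more in culture. They were tested because other groups are high, and 40% of all genes were called higher in control culture, so their calls carry no weight and the counts are given as values. *Adm2* had 427 to 1649 counts in control and 1325 to 1497 in cKO cultures, *Ucn* 71 to 372 and 402 to 661, and *Ucn2* 28 to 102 and 78 to 139, against at most 4 counts of any of these in a naive library. *Cckbr* had 1308 to 6499 and 4059 to 4639 counts in culture, and its log2 fold change against naive ganglia was 5.92 (SE 0.381) in control and 6.03 (SE 0.393) in cKO by edgeR. Depth differed between the tables, as given above.

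*Cckbr* and *Adm2*, singled out after their values were seen, had more counts in every operated-side than in every other-side sham library, as did 2.93% of all genes, and were not called. *Adm2* passed the filter through the operated side, so its lack of overlap carries no weight. *Adm2* had 0 to 3 counts in other-side and 32 to 103 in operated-side libraries (adjusted p = 0.158 by edgeR). *Cckbr* had 24 to 37 and 94 to 258 counts (log2 fold change 2.42, SE 0.356, adjusted p = 0.178 by edgeR).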
